A study of Mus musculus with 24 samples.

Results

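The genes described here are 10 components of interleukin-6 (IL-6) and interleukin-1 (IL-1) signalling, read in mouse liver. They are the receptors Il6ra, Osmr, Lifr and Il1r1, the shared receptor subunit Il6st, the transcription factors Stat3, Cebpb and Cebpd, the feedback inhibitor Socs3 and the IL-1 receptor antagonist Il1rn. They were taken by name from the arrays' annotation, with every probe of each gene. The rule itself used no measured value, but the 10 genes were chosen with earlier results of these data known. They make up 10 of 37074 gene names and 20 of 56605 probes on the array. All 10 passed the filter on dim probes, which kept 21331 genes, and so did 19 of the 20 probes.

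The livers came from 24 male C57Bl/6J mice, 6 in each of 4 groups of genotype and treatment, with 1 array per mouse. LWT mice had the nuclear receptor PPARα in their hepatocytes; LKO mice, by the series' description, lacked it there. The promoter, recombinase and allele behind LKO are not given in the sources used here. Treatment was CL316243, a beta3 adrenergic receptor agonist, at 3 mg/kg, or vehicle alone (0.5% carboxymethyl cellulose), and the gavage took place at Zeitgeber time 10 h. Food, a standard diet, was not restricted, and livers were taken at Zeitgeber time 16 h. The comparisons ask how the agonist changed these genes in each genotype, whether its effects differed between genotypes, and whether the genotypes differed under either treatment.

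IL-6 binds the receptor chain encoded by Il6ra and then engages gp130, the product of Il6st, which also pairs with the oncostatin M receptor and the leukemia inhibitory factor receptor. Bound gp130 activates Janus kinases, which phosphorylate STAT3. STAT3 then induces acute phase genes in hepatocytes and Socs3, whose product shuts the receptor off. IL-1 signals through the receptor encoded by Il1r1 and the adaptor MyD88 to NF-kappaB, and the product of Il1rn blocks that receptor. C/EBPβ and C/EBPδ are transcription factors that act with both pathways at acute phase promoters.

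The genotype labels were checked on the Ppara transcript. Levels are log2 signals after subtraction of each array's 75th percentile. Under vehicle the mean Ppara level was 5.68 ± 0.165 (SD, n = 6) in LWT and 5.01 ± 0.153 in LKO, and with CL316243 it was 6.23 ± 0.273 in LWT and 4.32 ± 0.644 in LKO. The LKO mice lay below the LWT mice without overlap under both treatments, but the limma fit called the difference only under CL316243 (-1.91, adjusted p = 3.6e-07) and not under vehicle (-0.68, adjusted p = 0.158). The labels do not give the deleted part of the gene, so the probe may lie outside it. The 75th percentile of intensity ran from 397.4 to 577.7 over the 24 arrays, and 26985 to 34202 probes were well above background. All 8 hepatocyte markers were well above background in every group.

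CL316243 raised most of these genes in both genotypes. In LWT, 8 of 10 rose and Lifr fell (limma, adjusted p under 0.05), so 9 were called where 38.3% of all genes tested were, 18.9% higher and 19.4% lower. In LKO, 7 rose and none fell, where 40.3% of all genes were called, 20.9% higher and 19.4% lower. These counts use the probe with the highest mean for each gene. Other probes of Lifr fell in LKO and another of Il6st rose, as described below. The median log2 change of the 10 was 1.19 in LWT and 1.60 in LKO, beside medians over all genes of 0.0092 and 0.027. The 7 genes that rose in LKO also rose in LWT, namely Stat3, Socs3, Osmr, Cebpb, Cebpd, Il1r1 and Il1rn. The 6 treated mice did not overlap the 6 vehicle mice for 2 genes in LWT (Stat3 and Il1rn), where 20.4% of all genes did not overlap. They did not overlap for 5 genes in LKO (Stat3, Socs3, Osmr, Cebpd and Il1r1), against 20.8% of all genes. All called changes had the same sign within each of the 3 slides, 9 of 9 in LWT and 7 of 7 in LKO. The slides hold the same mice that gave the calls, so this is a description and no separate support. The share over all called genes is not given here.

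**Figure D1:**
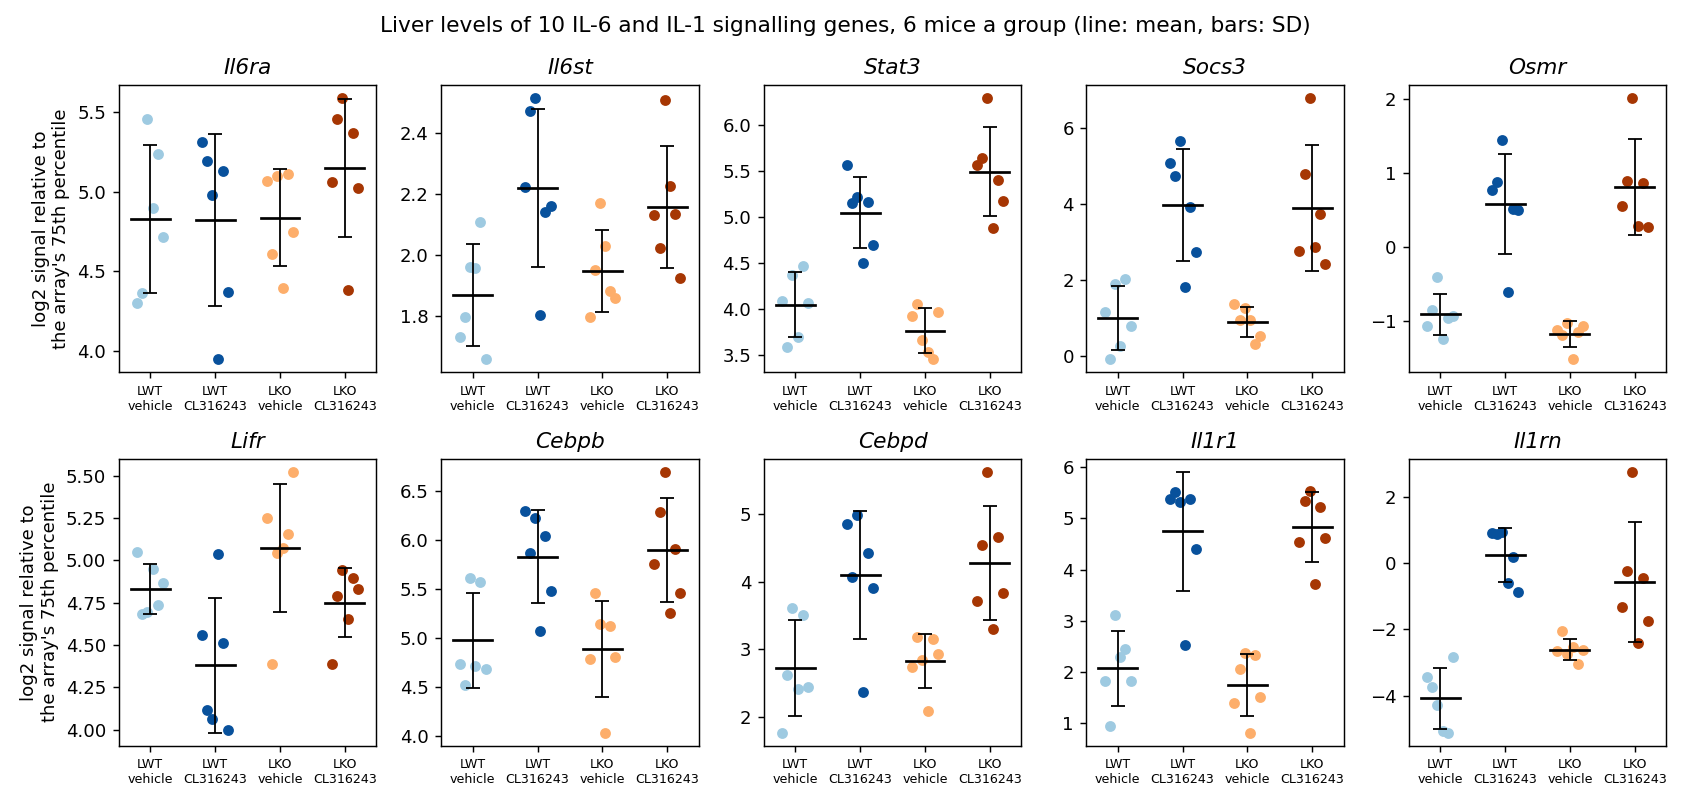
Log2 signal of the 10 genes relative to the 75th percentile of each array, 1 point per mouse, with 6 mice in each of 4 groups; lines are group means and bars are SD. Stat3, Socs3, Osmr, Il1r1 and Il1rn stand higher with CL316243 in both genotypes, while Il6ra stays within the same range, with group medians from 4.81 to 5.22.

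Among the receptor chains of the IL-6 family, Il6ra, which binds IL-6 itself, gave no called change. In LWT vehicle its level was 4.30 at the lowest, 4.81 at the median and 5.46 at the highest, and with CL316243 it was 3.95, 5.06 and 5.31. In LKO vehicle it was 4.39, 4.91 and 5.11, and with CL316243 it was 4.38, 5.22 and 5.59. The groups overlapped widely in both genotypes. The change was -0.0056 in LWT (95% interval -0.52 to 0.50, adjusted p = 0.99) and 0.31 in LKO (-0.20 to 0.82, adjusted p = 0.334). All probe positions here are those of build mm9, and the Il6ra probe maps to chromosome 3, bases 89674054 to 89674113.

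Osmr, which encodes the oncostatin M receptor, rose in both genotypes. Its level in LWT vehicle was -1.24 at the lowest, -0.95 at the median and -0.40 at the highest, and in LWT CL316243 it was -0.61, 0.64 and 1.45. LKO vehicle mice gave -1.51, -1.14 and -1.02, and treated LKO mice gave 0.27, 0.71 and 2.02. The LKO groups did not overlap, while 1 treated LWT mouse, replicate 4, lay below the highest vehicle mouse. The increase was 1.5 ± 0.275 (SE) in LWT, 2.82-fold, and 2.0 ± 0.275 in LKO, 3.99-fold (adjusted p = 0.000178 and 8.92e-06). The probe maps to chromosome 15, bases 6763686 to 6763745.

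Lifr, the receptor of leukemia inhibitory factor, was the only member with a called decrease. Its level ran from 4.68 to 5.05 in LWT vehicle, with a median of 4.80, and from 4.00 to 5.04 in LWT CL316243, with a median of 4.31. In LKO it ran from 4.39 to 5.52 under vehicle, with a median of 5.11, and from 4.38 to 4.95 with CL316243, with a median of 4.81. Treated and vehicle mice overlapped in both genotypes. Lifr fell by 0.45 ± 0.169 in LWT (adjusted p = 0.0399), and its change in LKO was -0.32 ± 0.169 (adjusted p = 0.136). The LWT call was lost when any 1 of 6 LWT mice was left out, vehicle replicate 1, 4 or 6 or CL316243 replicate 2, 3 or 6 (adjusted p 0.0627 to 0.097), and without the filter on dim probes (0.0777). The LKO change was called without LKO vehicle replicate 2 (-0.46, adjusted p = 0.0219). Other Lifr probes, described below, fell in both genotypes.

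Il6st, which encodes the gp130 subunit shared by these receptors, changed little on the probe used here. Its level in LWT vehicle was 1.66 at the lowest, 1.88 at the median and 2.11 at the highest, and in LWT CL316243 it was 1.80, 2.19 and 2.51. The LKO vehicle values were 1.80, 1.92 and 2.17, and those of LKO CL316243 were 1.92, 2.13 and 2.5. Both pairs of groups overlapped. The increase was 0.35 ± 0.113 in LWT (1.27-fold, adjusted p = 0.0172), and the change in LKO was 0.21 ± 0.113 (adjusted p = 0.148). Without LWT CL316243 replicate 3 the LWT value was 0.29 and no longer passed (adjusted p = 0.0506). A second Il6st probe, described below, rose in both genotypes.

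Stat3, the transcription factor activated by these receptors, rose 2.0-fold in LWT and 3.32-fold in LKO. Its level in LWT vehicle was 3.58 at the lowest, 4.08 at the median and 4.47 at the highest, and in LWT CL316243 it was 4.50, 5.16 and 5.57. In LKO, vehicle mice gave 3.45, 3.79 and 4.05 and CL316243 mice 4.88, 5.48 and 6.30. Every treated mouse lay above every vehicle mouse of its genotype. The change was 1.0 ± 0.21 in LWT (adjusted p = 0.000612) and 1.73 ± 0.21 in LKO (adjusted p = 1.94e-06). The probe maps to chromosome 11, bases 100749598 to 100749657.

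Socs3, the feedback inhibitor of gp130 receptors, rose 7.93-fold in LWT and 8.04-fold in LKO. Its level in LWT vehicle was -0.092 at the lowest, 0.97 at the median and 2.01 at the highest, and in LWT CL316243 it was 1.80, 4.32 and 5.66. In LKO vehicle it was 0.31, 0.95 and 1.35, and in LKO CL316243 it was 2.41, 3.30 and 6.80. The treated LKO mice all lay above the vehicle mice, while LWT CL316243 replicate 4 lay within the vehicle range. The change was 2.99 ± 0.663 in LWT (adjusted p = 0.00107) and 3.01 ± 0.663 in LKO (adjusted p = 0.00101). Treated mice of both genotypes spread widely, with an SD of 1.48 in LWT and 1.66 in LKO, so the 95% interval of the difference between the effects ran from -1.92 to 1.96. Without LKO CL316243 replicate 3 the LKO change was 2.43. The probe maps to chromosome 11, bases 117827480 to 117827539.

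Promoter sequences are shown for 3 of the genes that rose in both genotypes, chosen because a searched motif lay in the 250 bases before the start of the transcript. They come from RefSeq promoters of build GRCm38.p6, which held 13 windows for 9 of the 10 genes. Cebpd had no entry. The motifs were the STAT site TTCNNNGAA, the C/EBP site TTGCNNAA, a consensus for NF-kappaB, the cAMP response element TGACGTCA and its shorter form TGACG, each searched on both strands. Of 32851 windows of this length, 7.02% held the STAT site, 9.56% the C/EBP site, 3.9% the NF-kappaB consensus, 1.55% the full element and 17.8% the short form. The short form lies inside the full element, so these matches can overlap. Capitals mark the matches.
Socs3, chr11:117969367-117969616, minus strand: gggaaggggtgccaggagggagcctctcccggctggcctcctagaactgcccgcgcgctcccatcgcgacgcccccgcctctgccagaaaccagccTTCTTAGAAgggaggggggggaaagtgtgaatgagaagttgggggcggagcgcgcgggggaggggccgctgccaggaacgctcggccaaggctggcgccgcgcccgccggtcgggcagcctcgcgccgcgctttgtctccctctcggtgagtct
Cebpb, chr2:167688665-167688914, plus strand: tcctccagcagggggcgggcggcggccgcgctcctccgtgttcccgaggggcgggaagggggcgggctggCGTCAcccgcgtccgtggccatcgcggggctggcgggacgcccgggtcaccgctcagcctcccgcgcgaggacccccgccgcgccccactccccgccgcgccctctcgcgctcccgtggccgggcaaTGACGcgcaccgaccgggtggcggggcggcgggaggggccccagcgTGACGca
Il1r1, chr1:40224830-40225079, plus strand: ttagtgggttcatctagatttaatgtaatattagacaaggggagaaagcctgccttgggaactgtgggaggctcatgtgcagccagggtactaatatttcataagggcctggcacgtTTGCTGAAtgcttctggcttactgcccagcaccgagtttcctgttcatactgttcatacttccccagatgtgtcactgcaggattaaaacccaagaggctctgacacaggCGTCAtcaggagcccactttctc

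The Socs3 window held 1 STAT site, TTCTTAGAA, 154 to 146 bases before the start. The Cebpb window held 3 short forms of the cAMP element, at 180 to 176, 53 to 49 and 7 to 3 bases before the start. The Il1r1 window held the C/EBP site TTGCTGAA at 133 to 126 bases and a short cAMP element at 23 to 19 bases, and a second Il1r1 window held an NF-kappaB match at 232 to 223 bases. Il6ra, which gave no called change, held 1 short cAMP element at 236 to 232 bases. The windows of Stat3, Osmr, Lifr, Il6st and Il1rn held none of the letters searched. A match describes the sequence and shows no binding.

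Il1r1, the signalling receptor of IL-1, rose 6.39-fold in LWT and 8.45-fold in LKO. Its level in LWT vehicle was 0.95 at the lowest, 2.06 at the median and 3.11 at the highest, and in LWT CL316243 it was 2.53, 5.34 and 5.50. LKO vehicle mice gave 0.82, 1.79 and 2.37, and treated LKO mice gave 3.72, 4.92 and 5.53. The LKO groups did not overlap, and in LWT only CL316243 replicate 4, at 2.53, lay within the vehicle range. The change was 2.68 ± 0.452 in LWT (adjusted p = 7.37e-05) and 3.08 ± 0.452 in LKO (adjusted p = 1.75e-05). The probe maps to chromosome 1, bases 40372667 to 40372726.

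Il1rn, whose product occupies the IL-1 receptor without signalling, rose 19.8-fold in LWT and 4.09-fold in LKO. Its level in LWT vehicle was -5.11 at the lowest, -4.00 at the median and -2.83 at the highest, with 5 of 6 arrays well above background. In LWT CL316243 it was -0.88, 0.54 and 0.92. The LKO vehicle values were -3.04, -2.64 and -2.06, and those of LKO CL316243 were -2.42, -0.89 and 2.75. The LWT groups were fully separate, while the lowest treated LKO mouse lay within the LKO vehicle range. The change was 4.31 ± 0.608 in LWT (adjusted p = 9.3e-06) and 2.03 ± 0.608 in LKO (adjusted p = 0.0104). The size of the LWT change depended on the processing of these dim values: it was 2.79 with normexp background correction and 3.18 on the authors' deposited log2 values (adjusted p = 6.34e-05 and 2.3e-05). The highest treated LKO mouse, replicate 3, set much of the LKO spread, whose SD was 1.82, and without it the LKO change was 1.37. The probe maps to chromosome 2, bases 24206125 to 24206184. A second Il1rn probe, described below, gave smaller changes, 2.24 in LWT and 0.66 in LKO.

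Both C/EBP genes rose. Cebpb had a level in LWT vehicle of 4.52 at the lowest, 4.73 at the median and 5.62 at the highest, and in LWT CL316243 of 5.08, 5.96 and 6.30. In LKO, vehicle mice gave 4.04, 4.96 and 5.46 and CL316243 mice 5.26, 5.84 and 6.70. Vehicle and treated mice overlapped in both genotypes, though each of the 6 treated mice exceeded the mean of its vehicle group. Cebpb rose by 0.85 ± 0.273 in LWT (1.81-fold, adjusted p = 0.0165) and by 1.0 ± 0.273 in LKO (2.0-fold, adjusted p = 0.00547). Its probe maps to chromosome 2, bases 167515828 to 167515887.

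Cebpd, which is induced early in the acute phase response, had a level in LWT vehicle of 1.77 at the lowest, 2.53 at the median and 3.61 at the highest. In LWT CL316243 it was 2.37, 4.25 and 4.99. In LKO vehicle it was 2.08, 2.89 and 3.18, and in LKO CL316243 it was 3.30, 4.19 and 5.63. The LKO groups did not overlap, while the LWT groups did. Cebpd rose 2.60-fold in LWT (1.38 ± 0.414, adjusted p = 0.0111) and 2.75-fold in LKO (1.46 ± 0.414, adjusted p = 0.00724). Its probe maps to chromosome 16, bases 15888459 to 15888518.

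**Figure D2:**
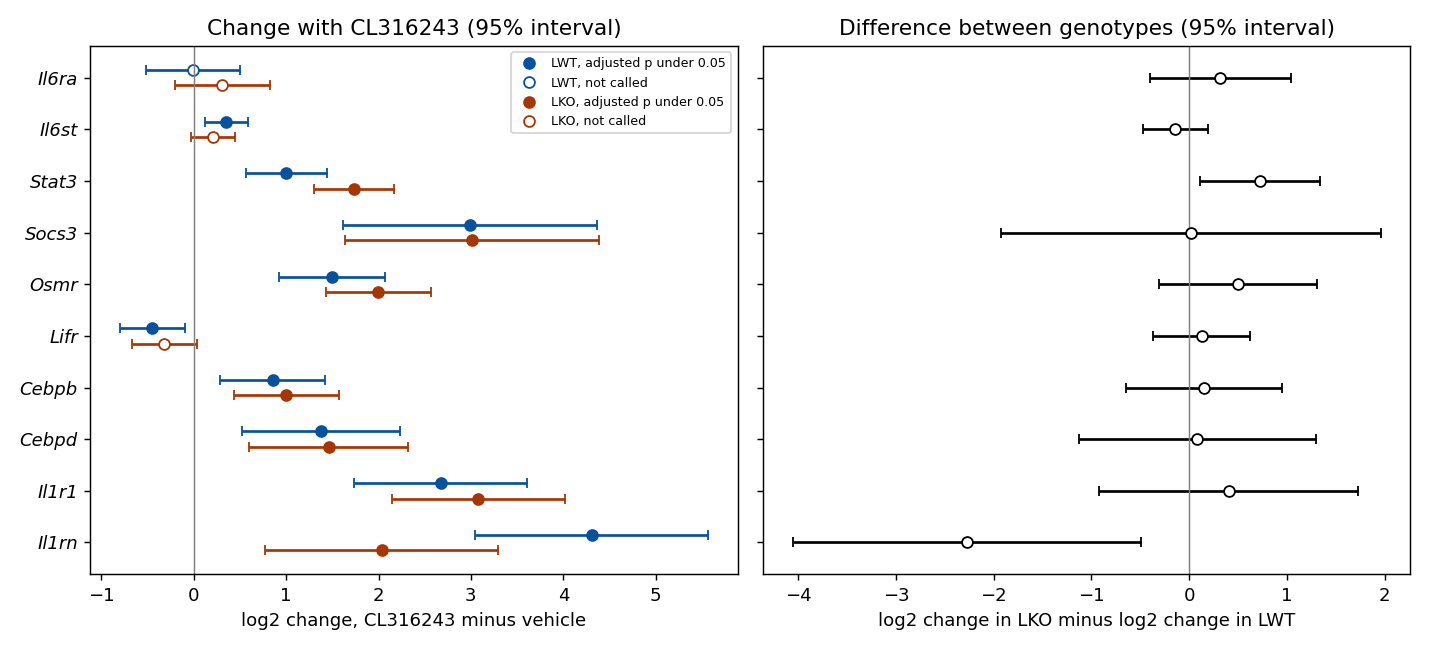
Left, log2 change with CL316243 in LWT and LKO for the 10 genes, with 95% intervals of the limma fit; filled points passed an adjusted p under 0.05 and open points did not. Right, the change in LKO minus the change in LWT with its 95% interval; none of the 10 passed, and Il1rn (-2.27) and Stat3 (0.73) have intervals that leave out 0 before adjustment.

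The effect of CL316243 was not called as different between genotypes for any of the 10 genes (limma), where 5.41% of all genes were called. At an unadjusted p under 0.05 there were 2, Il1rn and Stat3. The Il1rn effect was smaller in LKO by 2.27 on the log2 scale (difference -2.27 ± 0.86, 95% interval -4.06 to -0.49, adjusted p = 0.142). It was -1.23 with normexp background correction and -1.49 on the authors' deposited log2 values (adjusted p = 0.367 and 0.25). The Stat3 effect differed by 0.73 ± 0.296 (0.11 to 1.34, adjusted p = 0.177). The median difference over the 10 genes was 0.14, beside 0.030 over all genes. For the other 8 genes the 95% intervals included 0, and for Il6ra, Socs3, Osmr, Cebpd and Il1r1 they reached beyond 1 in at least 1 direction. The Il1rn call depended on 1 mouse. Without LKO CL316243 replicate 3 the difference was -2.94 and passed (adjusted p = 0.00424).

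Under vehicle, none of the 10 genes was called between LKO and LWT (limma), against 1.18% of all genes, and 1 had an unadjusted p under 0.05. This was Il1rn, at 1.46 ± 0.608 higher in LKO (adjusted p = 0.479), with all 6 LKO mice above the LWT mean. It was 0.61 with normexp background correction and 0.80 on the authors' deposited log2 values (adjusted p = 0.93 and 0.765). Under CL316243, none was called either (limma), against 15.9% of all genes, and 2 had an unadjusted p under 0.05. They were Lifr, at 0.37 ± 0.169 (adjusted p = 0.154), and Stat3, at 0.45 ± 0.21 (adjusted p = 0.166). Il1rn gave -0.81 ± 0.608 (adjusted p = 0.429), and without LKO CL316243 replicate 3 it gave -1.48 and passed (adjusted p = 0.023). Lifr passed without LWT CL316243 replicate 4 (0.50, adjusted p = 0.0312).

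The spread within the treated groups was shared by many of the genes. LKO CL316243 replicate 3 had the highest level of its group for 10 of 10 genes, and LWT CL316243 replicate 4 had the lowest for 8 of 10 and the highest for 1, Lifr. LKO CL316243 replicate 4 was the lowest of its group for 6. The linear signals of 8 neutrophil markers, each divided by the array's 75th percentile, summed to 168 in LKO CL316243 replicate 3 and 98.9 to 124 in the other 5 mice of its group. In LWT CL316243 replicate 4 this sum was 102, and it was 108 to 119 in the others of that group. Bright markers set most of such a sum, so it does not weigh the 8 markers equally. The array of LKO CL316243 replicate 3 had 27921 probes well above background and a 75th percentile of 413.4, the lowest of its group in both. The part of the neutrophil markers and of array signal in these levels was not tested. With both mice left out, a choice made after seeing the data, 9 genes were called in LWT and 7 in LKO, and Il1rn was called for the difference between the effects (-3.11, adjusted p = 0.00285) and between genotypes under CL316243 (-1.65, adjusted p = 0.0137).

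**Figure D3:**
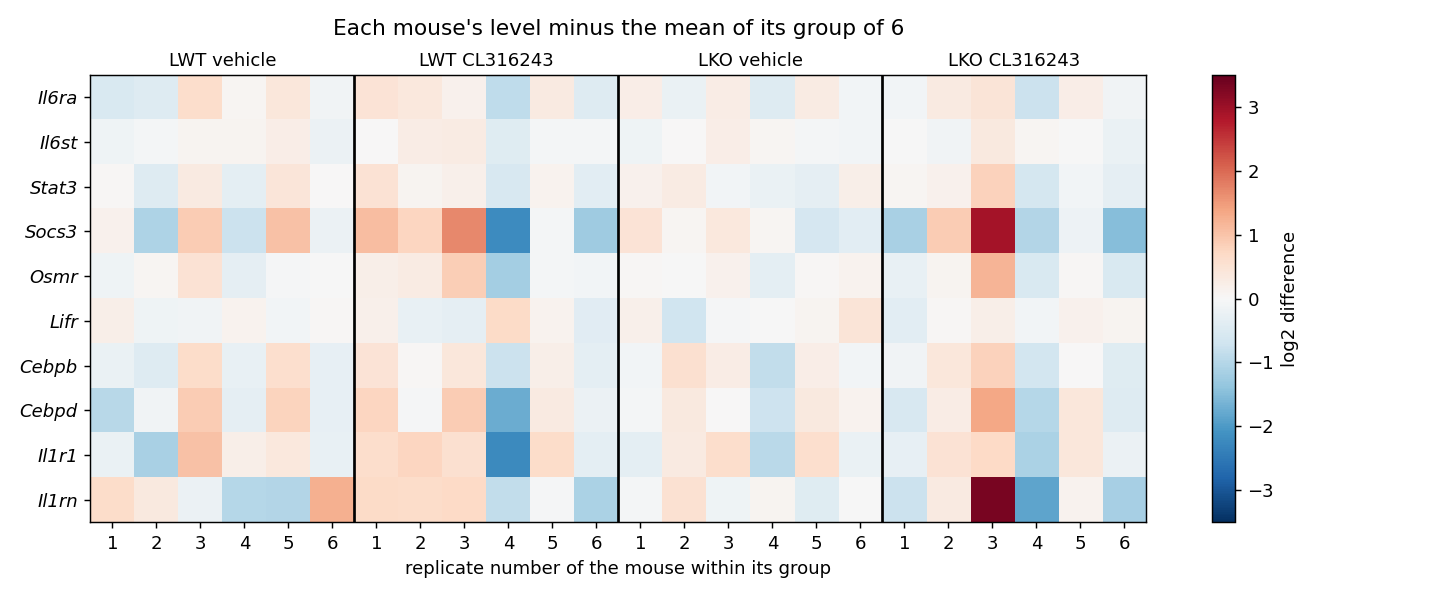
Log2 level of each mouse minus the mean of its group of 6, for the 10 genes (rows) and 24 mice (columns, by group and replicate number); red is above and blue below the group mean. LKO CL316243 replicate 3 is above its group mean in all 10 rows. It stands out most for Il1rn (level 2.75, group mean -0.58), followed by Socs3 (level 6.80, group mean 3.90). LWT CL316243 replicate 4 is below its group mean in most rows, as for Il1r1 (level 2.53, group mean 4.75).

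More than 1 kept probe was available for 6 of the 10 genes. Of the 19 kept probes, 18 were well above background on at least 1 array of every group. Of these 18, 15 were called in LWT (12 higher, 3 lower) and 13 in LKO (11 higher, 2 lower), where 37.6% and 41% of all kept probes were. The probe with the highest mean stands for each gene above, and 18 differences between a second probe and that probe were tested by exact two-sided permutation over 924 splits of 6 against 6, a test added after seeing the data. The 18 include those of the Osmr probe at base 1022, which was dim under vehicle. Lifr fell more clearly on the 2 probes annotated to its transcript variant 1. The probe at base 9492 fell by 0.82 in LWT and by 1.08 in LKO (adjusted p = 8.95e-05 and 4.69e-06), and that at base 3854 fell by 0.76 and by 0.75 (0.000356 and 0.000393). The probe used above lies at base 2572 of transcript variant 2. In LKO the fall on the probe at base 9492 was larger than on that probe (difference -0.76, exact permutation p = 0.0173, 0.0389 adjusted over the 18 tests). In LWT this difference did not pass (-0.37, adjusted 0.0849).

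The second Il6st probe, at base 2978, rose in both genotypes, by 0.44 in LWT and by 0.74 in LKO (adjusted p = 0.0303 and 0.00078). It exceeded the probe used above in LKO by 0.53 (exact permutation, adjusted 0.013). Another Il6st probe, drawn from a cDNA clone, was well above background on 0 of 24 arrays and was the 1 probe not kept. The Stat3 probe at base 5932 gave 0.42 in LWT, which did not pass (adjusted p = 0.241), and rose by 1.22 in LKO (0.00116). It stood below the probe used above by 0.58 and 0.52 in the size of its change (differences -0.58 and -0.52, each with the smallest exact p these splits can give, 0.00216, and adjusted 0.00972). The Stat3 probe at base 1428, annotated to transcript variant 3, rose by 0.89 and 1.32.

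The second Il1rn probe, at base 562, was well above background on 1 of 6 LWT vehicle arrays, so the size of its LWT change, 2.24 (adjusted p = 0.000282), rests on dim values. In LKO it gave 0.66, which did not pass (0.229). Its fitted change was smaller than that of the probe used above in both genotypes. The differences were -2.07 in LWT and -1.37 in LKO (exact permutation, each adjusted 0.00972). The LWT difference rests on the same dim vehicle values, so its size is uncertain. The part of signal near background in these differences was not tested. The second Il6ra probe gave 0.25 in LWT and -0.20 in LKO, neither called, and in LKO it stood 0.51 below the probe used above (difference -0.51, exact permutation, adjusted 0.013). Of the other Osmr probes, that at base 5427 rose by 1.68 and by 2.44 (adjusted p = 0.00321 and 9.77e-05). The Osmr probe at base 1022 was well above background on 0 of 6 arrays in both vehicle groups, on 4 of 6 in LWT CL316243 and on 6 of 6 in LKO CL316243, so it is left out of the count above and no change is given for it.

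**Figure D4:**
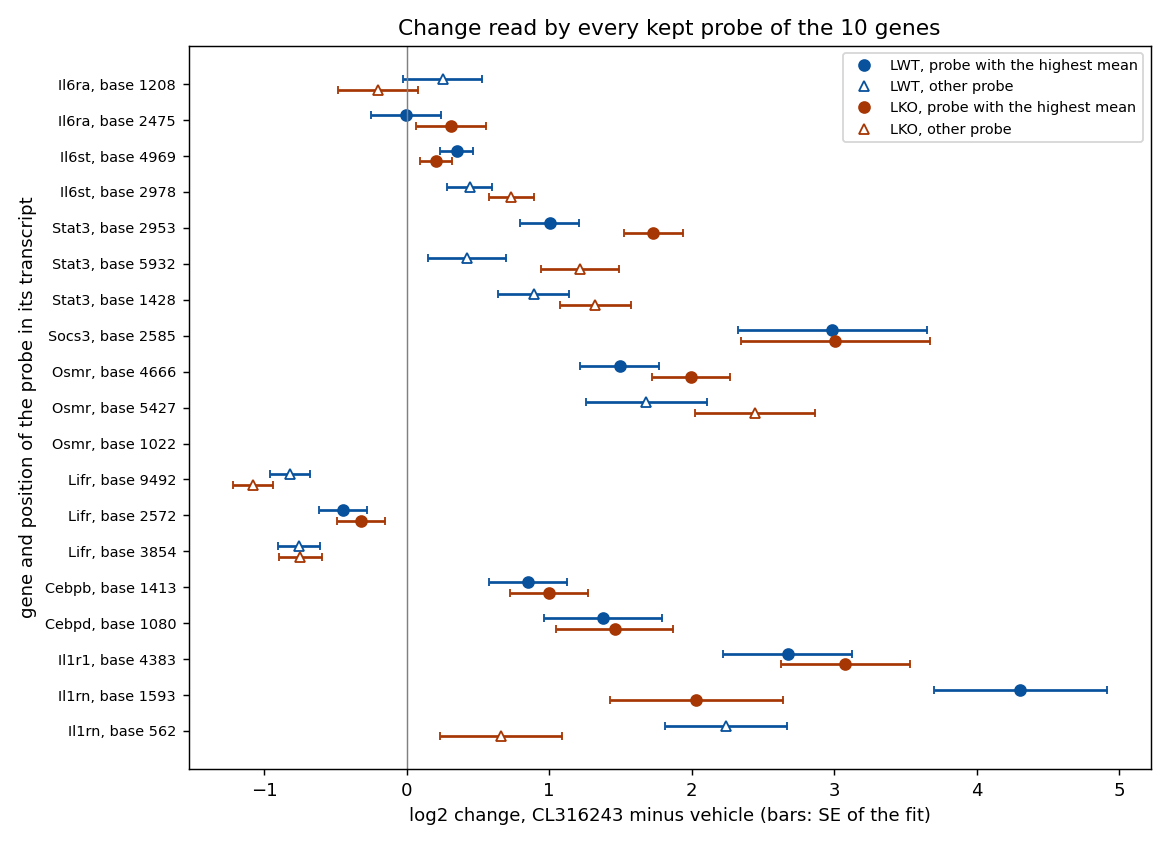
Log2 change with CL316243 read by each of the 19 kept probes of the 10 genes, in LWT and LKO, with the SE of the fit as bars; probes are named by gene and by their first base in the annotated transcript. The 3 Lifr probes all lie below 0, and no value is drawn for the Osmr probe at base 1022, which was not well above background in either vehicle group.

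The cytokines that start these pathways were dim in whole liver. Il6, Lif, Osm and Il1a did not pass the filter, and no probe of theirs was well above background on more than 3 of 6 arrays of any group. For Il6 the vehicle groups had 0 such arrays in LWT and 1 in LKO, and the treated groups had 1 in LWT and 3 in LKO. Il1b, which encodes IL-1β, passed the filter and gave 0.43 ± 0.513 in LWT and 0.31 ± 0.513 in LKO, neither called (adjusted p = 0.546 and 0.661). Il11 passed the filter only through LWT vehicle, where 4 of 6 arrays were well above background. The counts were 2 of 6 in LWT CL316243, 1 of 6 in LKO vehicle and 3 of 6 in LKO CL316243. Its values of -1.21 in LWT and 0.97 in LKO therefore rest on dim signal and are uncertain in size. Neither was called (limma, adjusted p = 0.0544 and 0.118). Il33, an alarmin of the IL-1 family, rose by 1.13 ± 0.328 in LKO (adjusted p = 0.00841) and gave -0.54 in LWT (0.205), and this difference passed (1.67 ± 0.463, adjusted p = 0.0346). Il18 fell in both, by 0.67 and by 0.39 (adjusted p = 0.000246 and 0.0176). Of 5 IL-6 family ligands tested, 2 rose (Cntf and Il27) and 1 fell (Ctf1) in each genotype. These and the list counts that follow stand beside the 38.3% of all genes called in LWT and the 40.3% called in LKO. Counts of differences between the effects stand beside 5.41% of all genes.

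Of 14 IL-6 family receptors and JAK-STAT genes, 5 of them described above, 4 rose and 4 fell in LWT and 5 rose and 2 fell in LKO. The list's median change was -0.059 in LWT and 0.27 in LKO. Stat5b, which carries growth hormone and other signals, fell by 0.36 ± 0.0919 in LWT (adjusted p = 0.00322) and rose by 0.65 ± 0.0919 in LKO (1.11e-05). Under vehicle its mice ran from 2.40 to 2.90 in LWT and from 2.35 to 2.86 in LKO, and with CL316243 from 2.10 to 2.45 in LWT and from 3.14 to 3.34 in LKO. The difference between these effects was 1.02 ± 0.13 (adjusted p = 2.25e-05), and every treated LKO mouse lay above every other mouse. The kinase Jak1 rose in LKO by 0.58 (adjusted p = 3e-05) and gave 0.19 in LWT (0.0913), while Tyk2 fell in both, by 0.51 and by 0.53 (0.0142 and 0.00971). Jak2 and Stat5a gave values between -0.13 and 0.22 that did not pass.

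Of 13 inhibitors of cytokine signalling, 5 rose and 1 fell in LWT and 6 rose and 1 fell in LKO. Socs3, described above, is among those that rose, and the list medians were 0.27 and 0.37. The 6 called in LWT are a share near that of all genes. The effects differed between genotypes for 2 of them, Socs5 (0.64, adjusted p = 0.0147) and the phosphatase gene Ptpn6 (-0.60, adjusted p = 0.0263). Over all genes 5.41% were called for this difference. Cish, a feedback target of STAT5, rose by 1.54 and by 2.04 (adjusted p = 0.0428 and 0.00838). Socs1 gave 1.42 and 1.90 and Socs2 gave 0.39 and 0.94, none of them called, with standard errors of 0.805 and 0.662.

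Of 9 IL-1 family ligands and receptors tested, 2 of them described above, 4 rose and 2 fell in each genotype. Those that rose in both included Il1r1 and Il1rn, described above, and Il1r2. Il1r2, a decoy receptor without a signalling domain, was well above background on 2 of 6 arrays in LWT vehicle, on 1 of 6 in LKO vehicle and on 6 of 6 in each treated group. It passed the filter through the treated groups, and its changes of 3.34 ± 0.642 in LWT and 3.44 ± 0.642 in LKO (adjusted p = 0.000271 and 0.000209) are uncertain in size because they rest on dim vehicle values. Il1rap, the co-receptor that Il1r1 needs to signal, fell by 0.39 ± 0.0803 and by 0.47 ± 0.0803 (adjusted p = 0.000509 and 9.14e-05). Sigirr, an inhibitory receptor, gave -0.20 and 0.033, neither called. Il1rl1, the receptor of IL-33, was well above background on 0 of 24 arrays.

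Of 21 genes of the relay from the IL-1 receptor to NF-kappaB, 8 rose and 2 fell in LWT and 15 rose and 1 fell in LKO, with medians of 0.25 and 0.48. The 10 called in LWT are a share near the 38.3% of all genes, while the 16 called in LKO stand beside 40.3%. The adaptor Myd88 rose by 2.0 ± 0.206 in LWT and by 1.34 ± 0.206 in LKO (adjusted p = 1.4e-07 and 2.83e-05). Irak3, an inhibitory member of the relay, rose by 1.40 and by 1.78 (0.00128 and 0.000125). It was well above background on 5 of 6 LWT vehicle and 3 of 6 LKO vehicle arrays, so these changes are uncertain in size. Rela, an NF-kappaB subunit, rose by 0.50 and by 0.92 (0.00112 and 2.05e-06), and Traf6 rose by 0.30 and by 0.48 (0.013 and 0.000329). Nfkbiz and Tnfaip3, NF-kappaB targets, rose in LKO by 0.94 and by 0.57 (0.00477 and 0.0307) and gave 0.42 and 0.17 in LWT, neither called. Nfkbia, the inhibitor IκBα, rose in LWT by 0.32 (0.0474) and gave 0.083 in LKO. The difference between the genotypes' effects passed for 2 genes of this list, Nfkb2 and Relb, named after their values were seen. They gave 0.99 (adjusted p = 0.00286) and 0.98 (adjusted p = 0.0388). Over all genes 5.41% were called for this difference.

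Of 6 C/EBP family genes, Cebpb, Cebpd and Cebpg rose in both genotypes. Cebpg, a partner that dimerises with the others, rose by 0.62 and by 1.03 (adjusted p = 0.000211 and 7.91e-07). Cebpa, which maintains the differentiated hepatocyte, fell by 0.79 and by 0.57 (0.00143 and 0.015). Cebpe, named after its values were seen, fell by 1.79 in LWT (2.91e-08) and gave -0.058 in LKO. It alone of the list had a called difference between the effects (1.73 ± 0.233, adjusted p = 4.44e-05), and under CL316243 it was higher in LKO than in LWT by 2.16 (1.68e-09). Ddit3, a stress-induced member, rose by 1.56 in LKO (2.68e-05) and gave 0.45 in LWT (0.143).

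Acute phase genes, the classical targets of these pathways in hepatocytes, rose with CL316243. Of 20 on the list, 19 were higher in LWT and 19 in LKO, with median changes of 1.1 and 1.30. The exceptions were Cp in LWT (0.056) and Hamp in LKO (0.043). Cp, ceruloplasmin, rose in LKO by 0.58, and its difference between the effects was the 1 of this list that passed (0.53 ± 0.0839, adjusted p = 0.000313). Hamp, hepcidin, rose in LWT by 0.76, its difference between the effects did not pass (-0.72, adjusted p = 0.121), and under CL316243 it was lower in LKO than in LWT (-0.55, adjusted p = 0.0467). Lcn2, lipocalin 2, rose 67-fold in LWT and 110-fold in LKO (6.07 ± 0.67 and 6.79 ± 0.67, adjusted p = 3.78e-07 and 2.03e-07). Saa1, serum amyloid A, rose by 2.66 ± 0.501 and by 4.41 ± 0.501 (0.000221 and 8.93e-07). Its treated mice reached similar levels, 8.81 to 9.84 in LWT and 9.55 to 9.99 in LKO, and the difference between the effects did not pass (1.75 ± 0.708, adjusted p = 0.173). Saa1 may share signal with its near-identical copy Saa2. Steap4 rose by 2.70 and by 3.02, Lrg1 by 1.54 and by 2.0, and Saa3 by 2.24 and by 2.78. Under vehicle, Lrg1 was lower in LKO than in LWT (-0.975, limma, adjusted p = 0.0132), and the mice did not overlap. It was the only gene of this list called there, beside 1.18% of all genes. Saa1 gave -1.61 in LKO against LWT under vehicle, which did not pass (limma, adjusted p = 0.18). Hp, haptoglobin, and Fgb, fibrinogen beta, rose by 0.54 to 0.69 in the 2 genotypes.

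**Figure D5:**
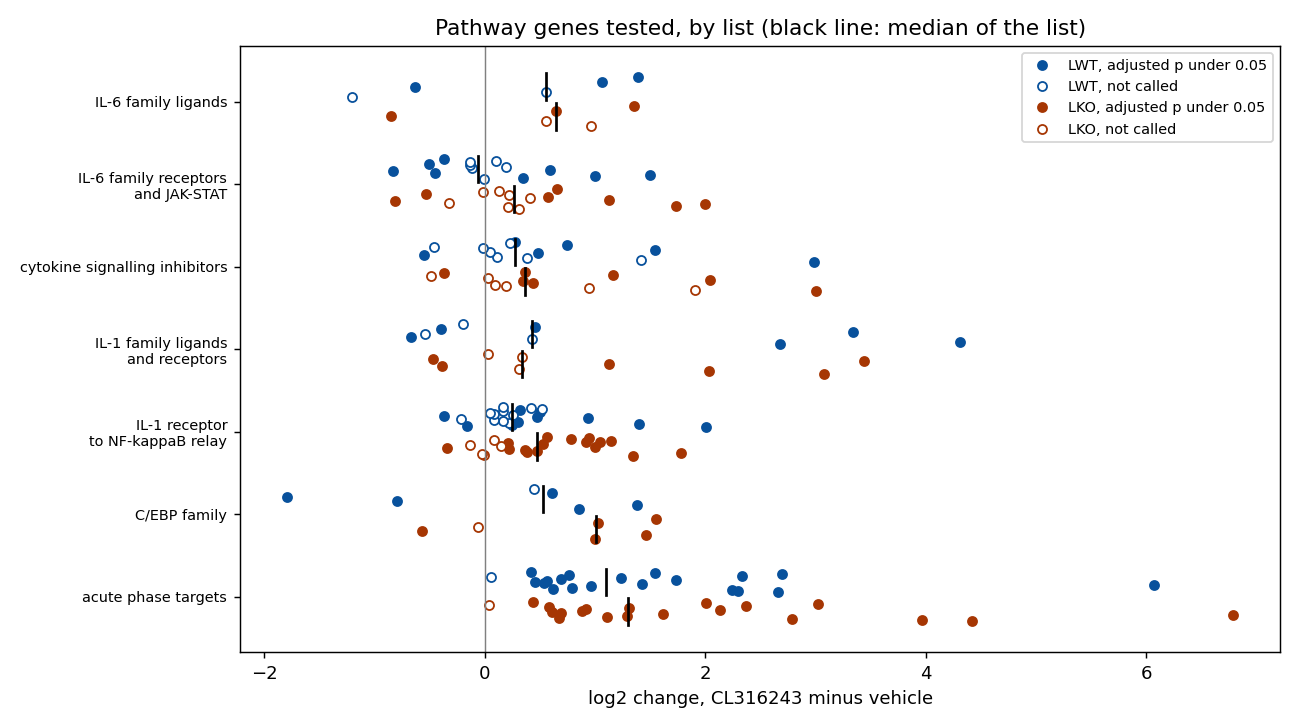
Log2 change with CL316243 in LWT and LKO for the tested genes of 7 pathway lists, 1 point per gene; filled points passed an adjusted p under 0.05, open points did not, and black lines are list medians. Acute phase targets lie to the right of 0 in both genotypes (medians 1.1 and 1.30), while the receptor and JAK-STAT genes lie on both sides (medians -0.059 and 0.27).

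Other cell types of the liver were read through fixed marker lists, again beside 38.3% and 40.3% of all genes called. In whole tissue, fewer cells of a type and less RNA per cell cannot be told apart. Of 8 neutrophil markers tested, 3 rose and 2 fell in LWT and 6 rose in LKO, and Ngp did not pass the filter. Mmp8 and Cxcr2, named here for their dim values, were among those that rose in LKO. They were well above background on 2 of 6 and on 1 of 6 LKO vehicle arrays, so their LKO changes are uncertain in size. S100a8 and S100a9, abundant neutrophil transcripts that other cells can also express, rose by 1.48 and by 1.44 in LWT (adjusted p = 0.0464 and 0.0409) and by 2.30 and by 2.25 in LKO (0.00291 and 0.00229). The neutrophil-restricted Ly6g fell by 0.38 in LWT (0.0342) and gave -0.28 in LKO (0.118). The summed signal of the 8 markers went from 92.6 to 104 under vehicle to 102 to 119 with CL316243 in LWT, and from 82.6 to 98 to 98.9 to 168 in LKO. Bright markers set most of this sum, so it does not weigh the 8 equally. The part of the neutrophil markers in the increases of Il1rn, Il1r1 and Socs3 was not tested. None of 9 Kupffer cell and macrophage markers was called in either genotype (limma), and 0 had an unadjusted p under 0.05. Sinusoidal endothelial markers gave 2 higher and 2 lower of 7 in LWT and 1 and 2 in LKO, and stellate cell markers 2 and 1 of 6 in LWT and 2 and 0 in LKO. Lymphocyte markers gave 0 higher and 2 lower of 5 in LWT and 1 and 2 in LKO, and cholangiocyte markers 1 and 0 of 5 in LWT and 2 and 0 in LKO. Of 8 hepatocyte markers, 1 rose in LWT, and 1 rose and 1 fell in LKO.

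Each gene was matched to the gene whose level followed it most closely over the 24 arrays, as a description only, since all arrays share the 4 groups. Socs3 was followed by Sbno2 (Pearson r = 0.972), Il1r1 by Snx10 (0.973), Osmr by Krtap11-1 (0.975) and Stat3 by Crem (0.966). Cebpd was followed by Itprip (0.965), Cebpb by Susd6 (0.947) and Il1rn by Zkscan6 (0.94). The 3 genes with the smallest changes had looser matches, Il6ra with Cep85l (0.866), Il6st with Map2k3os (0.855) and Lifr with Slc22a18 (0.859). Sbno2 itself rose by 1.09 in LWT and by 1.28 in LKO, and Crem rose by 1.71 and by 2.32.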

How the data were processed

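Liver RNA of 24 mice was labelled with Cy3 and hybridised to 1-colour arrays. The deposited scanner output holds an intensity per spot, read by the authors' Agilent Feature Extraction software (version 10.10.1.1 in the file headers and the submitters' processing notes); the processed intensity is background-subtracted. The authors' deposited value matrix holds log2 values; 99.3% of them lay within 0.01 of the quantile-normalized log2 median signal of the same arrays, and it served as an alternative. Of its columns, 0 lacked a sample.

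The processed intensities of the non-control spots were turned to log2 after outlier flags were removed. The 75th percentile over an array's 59305 spots was subtracted, and repeat spots of a probe were averaged. Probes that the scanner software marked as well above background on 4 or more arrays in any group of 6, with at least 3 values in every group, were kept, and the kept probe with the highest mean stood for its gene. Values below 0 are dimmer than the 75th percentile. No spot was saturated. All 24 arrays entered a limma 3.58.1 fit of the 4 group means in R 4.3.3 (with version 1.17.8 of the data.table package), and p-values were adjusted by the Benjamini-Hochberg method over all 21331 genes, or over 32037 probes where each probe was tested. Genes were called at an adjusted p under 0.05. The script was tested on simulated data. The median SE of a difference between groups was 0.13, and the number of arrays limits the precision.

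The 10 genes and the lists were chosen with earlier results of these data known. The text names the 10 genes, further ligands, receptors, relay members and targets fixed by name, and for each of the 10 the gene with the highest Pearson correlation; genes outside these are named only where a list count of 5 or fewer is given or where stated. The series describes 6 mice of each condition. Replicate numbers shared between groups were checked: of 36 same-numbered pairs, 11 had correlated deviations over 0.1 (range -0.183 to 0.424), so the numbers were not taken to pair mice. Alternatives covered background correction, normalization, filters, slide, slide row, the groups fitted, the probe chosen and each mouse left out.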

Additional observations from a re-analysis of the deposited data

Results flagged for a closer look

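Of 40 sets of 6 mice (10 genes in 4 groups), 3 held a mouse whose distance from the nearest other exceeded Dixon's 95% critical share of the range for 6 samples, where chance gives about 1 in 20, or 2. Osmr was -1.51 in LKO vehicle replicate 4, with the next mouse at -1.20. Osmr was 2.02 in LKO CL316243 replicate 3, with the next at 0.90. Il1r1 was 2.53 in LWT CL316243 replicate 4, with the next at 4.39.

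For 10 genes outside the 10 described, the effects of CL316243 differed between genotypes by the interaction term of the limma fit (adjusted p under 0.05, LKO minus LWT). They were sought among Ppara, the lists and the most similar genes. Over all genes 5.41% passed this test, and the share among the genes sought is not given here. Stat5b gave a difference of 1.02 (adjusted p = 2.25e-05), from -0.36 in LWT to 0.65 in LKO. Il33 gave 1.67 (0.0346), from -0.54 to 1.13. Cebpe gave 1.73 (4.44e-05), from -1.79 to -0.058. Nfkb2 gave 0.99 (0.00286) and Relb 0.98 (0.0388). Socs5 gave 0.64 (0.0147), Ptpn6 -0.60 (0.0263) and Cp 0.53 (0.000313). The neutrophil marker Camp gave 0.42 (0.0353), from -0.41 to 0.014. Ppara itself gave -1.24 (0.012), from 0.55 to -0.69.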

How the results depend on the processing

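The number of genes called was 8 or 9 of 10 in LWT and 7 to 9 in LKO under each alternative with all 24 mice, and 0 in the other 3 comparisons. The 8 came without the filter on dim probes, where Lifr was lost, and the 9 in LKO with the mean of all kept probes, which also called Il6st (0.47, adjusted p = 0.00332) and Lifr (-0.72, 5.69e-05). With each mouse left out in turn, 0 to 1 genes were called for the difference between the effects (Il1rn) and 0 to 1 for LKO against LWT under CL316243 (Il1rn or Lifr); with LWT CL316243 replicate 4 and LKO CL316243 replicate 3 both left out, 1 and 1. With replicate number as a block the counts were 9, 7, 0, 0 and 0; 10 of 24 mice correlated best with their own number, and the pairing is not given by the labels.

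No called change turned its sign. Of the values that were not called, 79 for 22 results did, and none of these was called afterwards; they were estimates near 0 or with wide intervals. With single mice left out, the difference between the effects ran from -0.56 to 0.36 for Socs3, -0.0094 to 0.26 for Lifr, -0.023 to 0.28 for Cebpb, -0.27 to 0.28 for Cebpd and -0.039 to 0.63 for Il1r1. The LWT change of Il6ra ran from -0.11 to 0.17. LKO against LWT under vehicle ran from -0.096 to 0.14 for Il6ra, -0.33 to 0.093 for Socs3, -0.20 to 0.087 for Cebpb and -0.096 to 0.27 for Cebpd. Under CL316243 it ran from -0.67 to 0.25 for Socs3, -0.0078 to 0.41 for Osmr, -0.096 to 0.19 for Cebpb, -0.17 to 0.37 for Cebpd and -0.36 to 0.30 for Il1r1. With both named mice left out, the LWT change of Il6ra was 0.17. The difference between the effects was then -1.0 for Socs3, -0.16 for Cebpb, -0.54 for Cebpd and -0.18 for Il1r1. LKO against LWT under CL316243 was then -0.25 for Osmr, -0.25 for Cebpb, -0.44 for Cebpd and -0.51 for Il1r1. With the mean of all kept probes, the LWT change of Il6ra was 0.12, the difference between the effects -0.069 for Il6ra, 0.075 for Il6st and -0.041 for Lifr, and Il6st gave -0.075 under vehicle and 0.00023 under CL316243. On its second probe Il6ra gave 0.25 in LWT, -0.20 in LKO, -0.45 for the difference and -0.070 under CL316243. On the probe at base 2978 Il6st gave 0.29 for the difference, -0.23 under vehicle and 0.063 under CL316243. On the probe at base 9492 Lifr gave -0.26 for the difference and -0.080 under CL316243. The cause of these turns was not tested.

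Array signal limits the dim genes. Il1rn, Il1r2 and Irak3 were below the background call on some vehicle arrays, Il11 on some arrays of every group, and Il6 on most arrays. The changes of these genes are therefore less certain in size. Each group holds 6 mice, and treated mice spread widely for Socs3 in both genotypes and for Il1rn in LKO.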
